A study of Mus musculus with 4 samples.

Results

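The genes that make purine and pyrimidine nucleotides were followed in cultured MDSCs that had or had not received G-CSF. They comprise 33 genes, taken by name from the enzymes of *de novo* and salvage synthesis of purines, pyrimidines and deoxynucleotides by their function, with earlier results of these data known. The rule itself uses no expression value. All 33 were among the 24346 genes with a value in each library, and all 33 were among the 12113 genes with enough reads to be tested.

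Purine rings are built stepwise on an activated ribose phosphate until IMP is reached, and IMP is then turned into AMP or GMP. Pyrimidines are made as a free ring that is joined to the ribose phosphate afterwards, giving UMP and from it CTP. Ribonucleotide reductase converts ribonucleotides into the deoxynucleotides needed for DNA, and both pathways are known to be active in proliferating hematopoietic precursors.

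MDSCs are immature myeloid cells known for suppressing T cells. Here they were grown from BM cells of C57BL/6J mice aged 6 to 8 weeks, and all cultures received 40 ng/ml GM-CSF for 4 days. The 2 Control libraries came from cells differentiated without G-CSF, and the 2 G-CSF libraries from cells that also received 5 ng/ml G-CSF. The comparison asks what G-CSF adds to cells already under GM-CSF. The study describes the 2 libraries of a group as biological replicates, but the labels do not say whether they came from separate cultures or animals, and the p-values measure the spread between these libraries.

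Values are FPKM, that is, fragments scaled to transcript length and to sequencing depth, so that levels of different genes can be set side by side per length. The libraries held an estimated 12.45 to 15.7 M reads, and a member had between 200 and 8237 estimated reads in a library. Pearson's *r* of log2 values was 0.9959 between the Control libraries and 0.9958 between the G-CSF libraries, and 0.9861 to 0.9887 between groups. Of 9 myeloid markers tested, all of them expressed, the granule genes *Mpo* and *Elane* rose with G-CSF and 4 others fell. The extraction note in the labels names liver tissue, but 6 of 7 hepatocyte markers, *Alb* and *Apoa1* among them, were listed at 0 in all 4 libraries. Summed markers reached at most 2.93 FPKM for T cells, 2.27 for B cells and 1.79 for erythroid cells.

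G-CSF raised most of the nucleotide synthesis genes, each by a moderate amount. Of the 33 genes, 23 were higher with G-CSF (69.7%), 1 was lower (*Samhd1*), and 9 did not pass the test. Among all genes tested, 12.4% were higher and 11.2% lower by the same rule, an adjusted p under 0.05 (limma, Benjamini-Hochberg over all genes tested). The 23 risers gained between 18.2% (*Nme1*) and 59.7% (*Impdh1*) in mean FPKM. None of the 33 passed a fold change of 2 together with the adjusted p, which 1.42% of all genes did. Both G-CSF libraries stood above both Control libraries for 28 members (84.8%) and below them for 2 (6.06%), against 33.4% and 32.4% of all genes. The median log2 fold change, G-CSF over Control, was 0.33 over the members and 0.00 over all genes, of which the middle 50% lay between -0.19 and 0.17. Summed over the 33 genes, expression was 1890 and 1925 FPKM in Control and 2186 and 2259 FPKM with G-CSF. RNA was taken from whole cultures, in which a change in the share of cells that express a gene cannot be told apart from a change in RNA per cell.

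**Figure D1:**
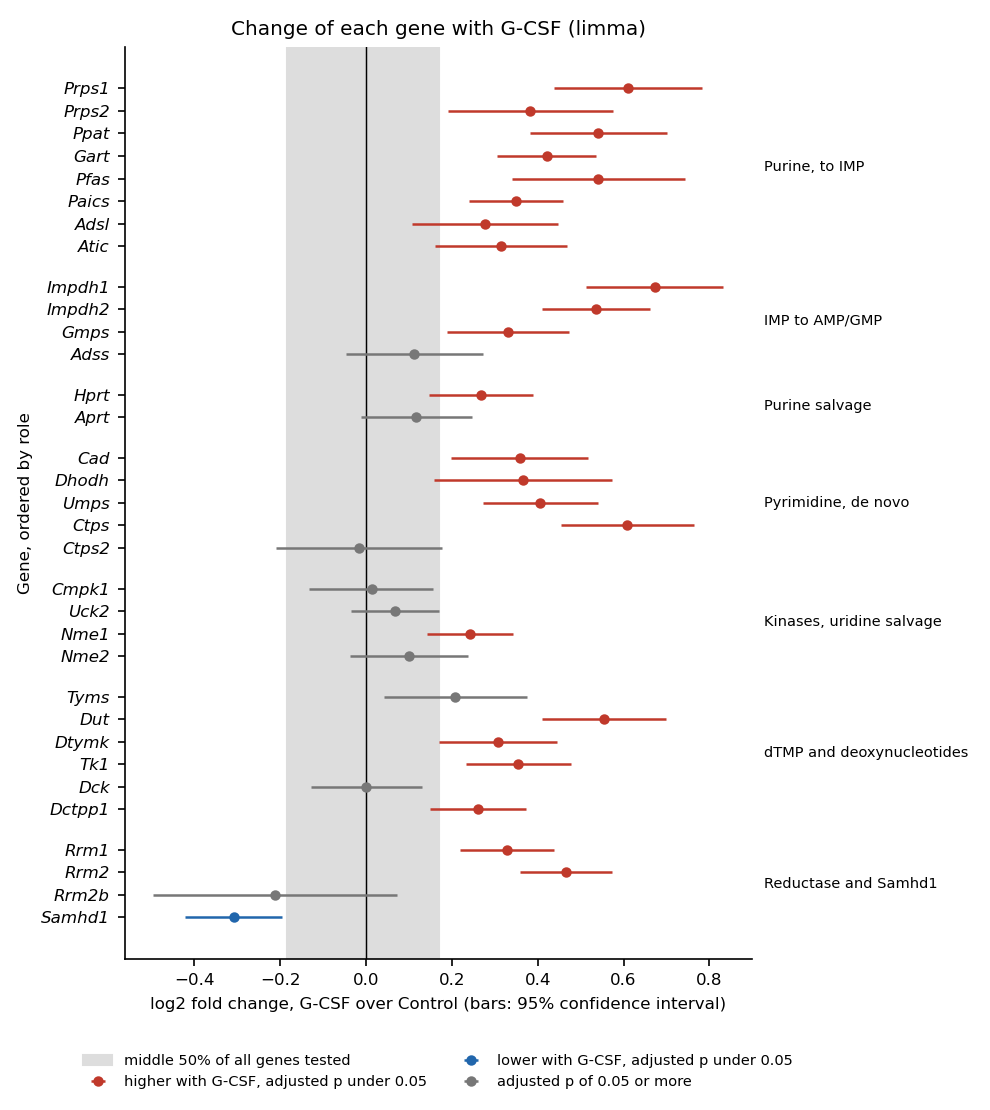
Log2 fold change of each nucleotide synthesis gene, G-CSF over Control, grouped by step of the pathway, with bars for the 95% confidence interval of the limma fit, colour for the call and a grey band for the middle 50% of all genes tested. All 8 genes of the path to IMP lie to the right of 0 with their intervals, and *Samhd1* is the member called lower.

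The path from ribose phosphate to IMP rose as a whole: all 8 of its genes were higher with G-CSF, with a median log2 fold change of 0.40. Their summed expression was 216.4 and 221.9 FPKM in Control and 279.2 and 294.8 FPKM with G-CSF. The path starts with PRPP, the activated ribose phosphate, made by the synthetases *Prps1* and *Prps2*. *Prps1* measured 16.1 and 17.99 FPKM in Control and 25.7 and 26.4 FPKM with G-CSF (log2 fold change 0.61, SE 0.0715, adjusted p = 0.0051). *Prps2* measured 8.81 and 9.14 FPKM in Control and 12.2 and 11.2 FPKM with G-CSF (0.38, SE 0.0802, adjusted p = 0.0206). For both synthetases the groups were apart, and *Prps1* was the more abundant in every library. *Prps2* lost the call without Control replicate 1 (adjusted p = 0.0731) or G-CSF replicate 1 (0.0876). Of the 75-base windows of *Prps1* transcripts, 5.1% also occur in *Prps1l3*, so some of its reads could have been assigned to either gene. *Prps1l3* measured 10.7 and 10.9 FPKM in Control and 15.1 and 13.7 FPKM with G-CSF. Windows that are similar but not identical were not counted.

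*Ppat* encodes the amidotransferase of the committed step. It measured 11.1 and 10.8 FPKM in Control and 15.7 and 16.1 FPKM with G-CSF (0.54, SE 0.0661, adjusted p = 0.0055). *Gart*, a multifunctional enzyme of the middle of the path, measured 35.0 and 35.7 FPKM in Control and 46.8 and 47.9 FPKM with G-CSF (0.42, SE 0.0477, adjusted p = 0.00472). *Pfas*, the synthase of the step that follows the formyl transfer by *Gart*, measured 7.51 and 7.50 FPKM in Control and 10.5 and 11.5 FPKM with G-CSF (0.54, SE 0.0841, adjusted p = 0.00903). In these 3 genes the Control libraries lay close together, and both G-CSF libraries were clearly above them.

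*Paics*, a bifunctional enzyme of the later steps, measured 65.2 and 65.3 FPKM in Control and 81.2 and 85.1 FPKM with G-CSF (0.35, SE 0.0456, adjusted p = 0.00589). *Adsl*, the lyase that acts in the path to IMP and again in the step to AMP, measured 14.3 and 15.6 FPKM in Control and 17.8 and 18.6 FPKM with G-CSF (0.28, SE 0.0706, adjusted p = 0.0348). *Atic*, which closes the ring to IMP, measured 58.4 and 59.8 FPKM in Control and 69.4 and 78.0 FPKM with G-CSF (0.31, SE 0.0638, adjusted p = 0.0186). The groups did not overlap for any of them, but *Adsl* and *Atic* lost the call without the filter on low values (adjusted p = 0.0673 and 0.0526), where more genes entered the adjustment. *Adsl* also lost it without Control replicate 1 (0.145), G-CSF replicate 1 (0.0715) or G-CSF replicate 2 (0.12), and *Atic* without Control replicate 1 (0.0591).

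Within the path, levels per length differed far more between genes than between groups. In Control, mean FPKM ranged from 7.50 for *Pfas*, 8.97 for *Prps2* and 10.9 for *Ppat* to 59.1 for *Atic* and 65.2 for *Paics*. *Ppat* and *Paics* lie head to head on chromosome 5 (GRCm38, GENCODE M21), with *Ppat* at chr5:76913249-76951578 on the minus strand and *Paics* at chr5:76951307-76967509 on the plus strand. Their annotated start sites are 271 bases apart and their spans overlap by 272 bases. The library kit was stranded, but whether strand was used in counting is not given in the sources used here, so reads of the overlap could have been assigned to either gene. Both rose, and *Paics* stood at 5.90 and 6.05 times *Ppat* in Control and at 5.17 and 5.27 times with G-CSF. *Gart* lies 554 bases from the start of *Son*, a splicing factor gene on the other strand, which measured 65.9 and 65.2 FPKM in Control and 65.3 and 67.0 FPKM with G-CSF (0.01, 95% CI -0.09 to 0.12). The values of *Son* overlapped between groups, unlike those of *Gart*.

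**Figure D2:**
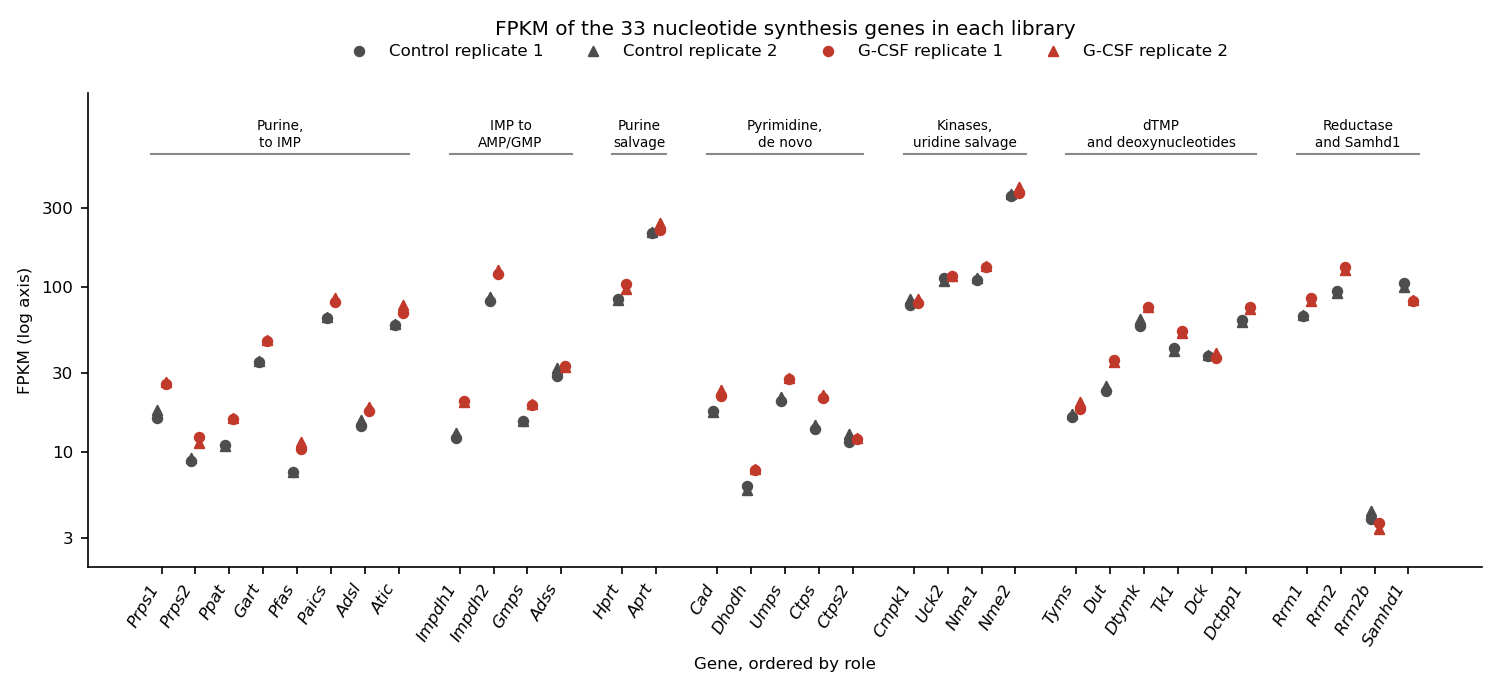
FPKM of each nucleotide synthesis gene in the 2 Control and 2 G-CSF libraries on a log axis, grouped by step of the pathway, with a black point for each Control library and a red one for each G-CSF library. The G-CSF points lie above the Control points for 28 of the 33 genes, and the genes span mean Control levels from that of *Rrm2b* (4.14 FPKM in Control) to that of *Nme2* (361.1 FPKM).

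From IMP, the branch to GMP rose, and *Adss*, the member of the first step toward AMP, did not pass the test. *Impdh1* and *Impdh2* encode IMP dehydrogenase, the rate-limiting enzyme of GMP synthesis. *Impdh1* measured 12.2 and 13.1 FPKM in Control and 20.3 and 20.03 FPKM with G-CSF, with the largest log2 fold change of the 33 genes (0.67, SE 0.0666, adjusted p = 0.00347). *Impdh2* measured 82.6 and 87.3 FPKM in Control and 119.5 and 127.0 FPKM with G-CSF (0.54, SE 0.0521, adjusted p = 0.00336). *Impdh2* was thus the more abundant isoform in all 4 libraries, at 6.78 and 6.68 times *Impdh1* in Control and 5.89 and 6.34 times with G-CSF. Of the windows of *Impdh2* transcripts, 34.9% also occur in its pseudogene *Impdh2-ps*, which was not analysed here, so its level is uncertain to that extent.

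*Gmps*, which makes GMP from the product of IMP dehydrogenase, measured 15.3 and 15.3 FPKM in Control and 19.1 and 19.5 FPKM with G-CSF (0.33, SE 0.0591, adjusted p = 0.0131). *Adss*, which starts the branch to AMP, measured 28.8 and 32.2 FPKM in Control and 33.2 and 32.7 FPKM with G-CSF (0.11, 95% CI -0.05 to 0.27, adjusted p = 0.26). Its G-CSF libraries were just above its Control libraries, but the interval included 0. *Adssl1*, listed among the other nucleotide genes, measured 35.2 and 33.03 FPKM in Control and 41.996 and 36.25 FPKM with G-CSF. Its groups did not overlap, but its log2 fold change of 0.194 (95% CI 0.003 to 0.385) did not pass after adjustment (adjusted p = 0.126). The difference in response between *Adss* and the GMP genes was not tested.

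Of the 2 genes of purine salvage, which rebuilds nucleotides from free bases, *Hprt* rose and *Aprt* did not pass the test. *Hprt*, which recovers hypoxanthine and guanine, measured 84.0 and 83.3 FPKM in Control and 104.5 and 97.1 FPKM with G-CSF (0.27, SE 0.0504, adjusted p = 0.015). *Aprt*, which recovers adenine, measured 212.9 and 214.0 FPKM in Control and 221.2 and 242.3 FPKM with G-CSF (0.12, 95% CI -0.01 to 0.25, adjusted p = 0.162). *Hprt* was apart between groups by more than the spread within them, whereas for *Aprt* the G-CSF libraries differed from each other by more than the nearer one differed from Control. *Hprt* lost the call without G-CSF replicate 1 (adjusted p = 0.0553).

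Promoters were searched for CACGTG, the E-box bound by factors of the MYC family, which reads the same on both strands, and on either strand for CCAAT, for the GC box GGGCGG and for the E2F motifs TTTCGCGC and TTTGGCGC. Each was searched on its own, so matches of different motifs may overlap. The windows held 250 bases before and 50 after the annotated start (RefSeq, GRCm38.p6), and 30 of the 33 genes were matched. A gene can have several windows and counted if any of them held the motif. The share of all windows is per window and so not directly comparable. CACGTG occurred in 6 of them (20%: *Paics*, *Atic*, *Impdh2*, *Nme1*, *Tyms* and *Dtymk*), in 11.9% of 9353 tested genes with a window and in 7.20% of all 32851 windows. CCAAT occurred in 11 of the 30 (36.7%), in 43.0% of the tested genes and in 37.4% of all windows. GGGCGG occurred in 25 of the 30 (83.3%), in 68.1% of the tested genes and in 35.7% of all windows. The E2F motifs occurred in 0 of the 30, in 1.8% of the tested genes and in 0.8% of all windows, which says only that these letters are not in these windows. Of the 6 genes with CACGTG, 5 rose and *Tyms* did not pass the test, where 23 of all 33 members rose (69.7%). A link between the motif and the rise was not tested. The stretches around the motif are shown for the 4 of them with the smallest p, on the strand of the gene, with CACGTG in capitals. A match is a description of the letters and neither a bound site nor a cause.
Impdh2: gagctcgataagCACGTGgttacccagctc
Paics: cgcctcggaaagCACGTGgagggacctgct
Nme1: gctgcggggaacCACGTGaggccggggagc
Dtymk: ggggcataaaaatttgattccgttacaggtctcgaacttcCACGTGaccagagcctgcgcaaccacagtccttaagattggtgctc

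The *Impdh2* stretch lies at chr9:108560314-108560343 on the plus strand, with the motif at position -110 from the RefSeq start, and GENCODE annotates it as exonic UTR of a longer *Impdh2* transcript. The *Paics* stretch lies at chr5:76951087-76951116 on the plus strand, with the motif at -203, inside a UTR exon of the divergent gene *Ppat*. The *Nme1* stretch lies at chr11:93968273-93968302 on the minus strand, with the motif at -18, in a UTR exon of *Nme1* and of the read-through gene Gm20390 in GENCODE. The *Dtymk* stretch lies at chr1:93802037-93802122 on the minus strand, with the motif at -148, between annotated genes.

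Pyrimidine synthesis rose in 4 of its 5 genes, with a median log2 fold change of 0.37. Summed expression was 69.6 and 72.2 FPKM in Control and 90.2 and 93.6 FPKM with G-CSF. *Cad*, the multifunctional enzyme of the first steps, measured 17.8 and 17.5 FPKM in Control and 21.7 and 23.7 FPKM with G-CSF (0.36, SE 0.0667, adjusted p = 0.0148). *Dhodh*, the mitochondrial dehydrogenase that links the path to the respiratory chain, measured 6.19 and 5.91 FPKM in Control and 7.76 and 7.88 FPKM with G-CSF (0.37, SE 0.0861, adjusted p = 0.0281). *Umps*, which attaches the ring to ribose phosphate and gives UMP, measured 20.5 and 21.4 FPKM in Control and 27.7 and 27.9 FPKM with G-CSF (0.41, SE 0.0558, adjusted p = 0.00666). The groups of these 3 genes did not overlap. *Dhodh* had few reads, 298 to 445 a library, and lost the call without the filter (adjusted p = 0.0559) and without any of the 4 libraries (0.07 to 0.0972), while *Cad* lost it without G-CSF replicate 2 (0.0506).

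CTP is made from UTP by CTP synthase, and its genes differed. *Ctps* measured 13.7 and 14.5 FPKM in Control and 21.2 and 21.96 FPKM with G-CSF (0.61, SE 0.0642, adjusted p = 0.00417). Its paralog *Ctps2* measured 11.5 and 12.8 FPKM in Control and 11.9 and 12.1 FPKM with G-CSF (-0.02, 95% CI -0.21 to 0.18, adjusted p = 0.903). The intervals of the 2 log2 fold changes did not overlap, that of *Ctps* being 0.46 to 0.76. *Ctps* stood at 1.19 and 1.13 times *Ctps2* in Control and at 1.79 and 1.81 times with G-CSF. No window of either gene was identical to one of another gene, but similar windows were not counted.

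Ratios between paired enzymes were read library by library, since a ratio within a library does not depend on its scaling. They were given no test, because 2 libraries against 2 cannot go below p = 0.333 in an exact two-sided permutation test. *Prps1* stood at 1.83 and 1.97 times *Prps2* in Control and at 2.10 and 2.35 times with G-CSF. The reductase subunit *Rrm2* stood at 1.42 and 1.36 times *Rrm1* in Control and at 1.53 in both G-CSF libraries, and at 24.1 and 21.2 times *Rrm2b* in Control and 35.7 and 36.9 times with G-CSF. The ratio of *Tk1* to *Tyms*, which represent salvage and *de novo* synthesis of dTMP, overlapped between the Control libraries (2.63 and 2.41) and the G-CSF libraries (2.96 and 2.62).

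**Figure D3:**
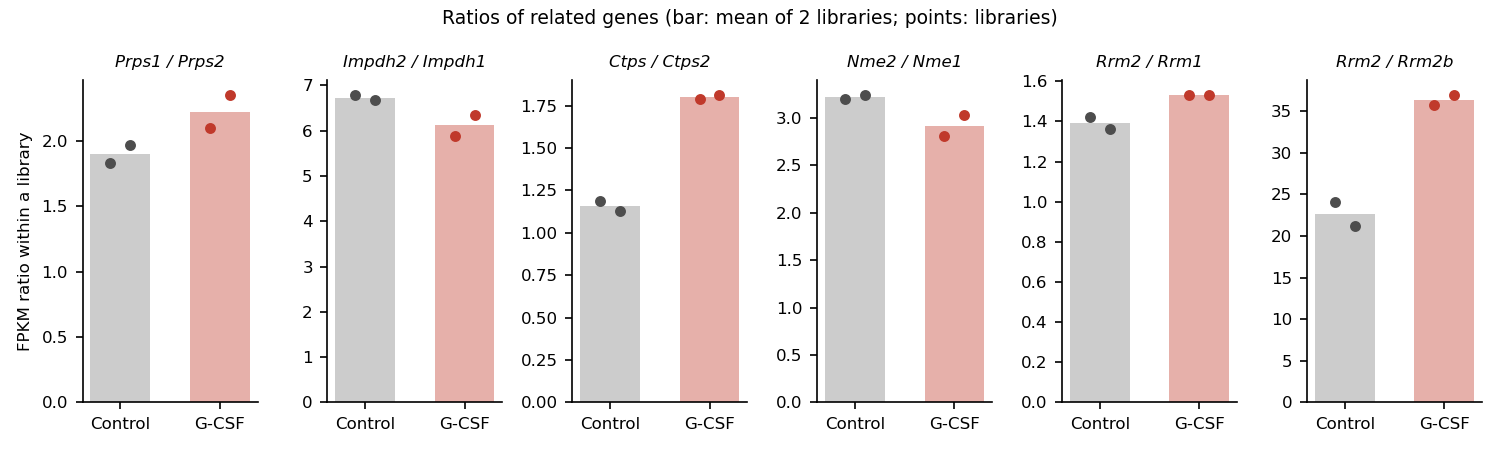
Ratio of FPKM within a library for 6 pairs of related genes, each on its own linear axis from 0, with a point for each library and a bar for the mean of the 2 libraries of a group. *Ctps* to *Ctps2* (means 1.16 and 1.80) and *Rrm2* to *Rrm2b* (means 22.6 and 36.3) have the widest gaps between Control and G-CSF, and *Impdh2* to *Impdh1* and *Nme2* to *Nme1* are lower with G-CSF.

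Of 4 kinases that phosphorylate ribonucleosides and their nucleotides (*Uck2*, *Cmpk1*, *Nme1* and *Nme2*), *Nme1* rose and the others did not pass the test. Their median log2 fold change was 0.08. *Nme1* and *Nme2* encode nucleoside diphosphate kinases, which make the triphosphates. *Nme1* measured 110.8 and 113.4 FPKM in Control and 131.3 and 133.8 FPKM with G-CSF (0.24, SE 0.0418, adjusted p = 0.012), a call lost without Control replicate 1 (0.0525). *Nme2* measured 354.3 and 367.9 FPKM in Control and 369.3 and 405.5 FPKM with G-CSF (0.10, 95% CI -0.04 to 0.24, adjusted p = 0.248). The 2 genes are neighbours on chromosome 11, and 10.4% of the windows of *Nme1* and 45.8% of those of *Nme2* also occur in the read-through gene Gm20390, so the split of reads between them is uncertain. As counted, *Nme2* stood at 3.20 and 3.24 times *Nme1* in Control and at 2.81 and 3.03 times with G-CSF.

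*Uck2*, the uridine-cytidine kinase of pyrimidine salvage, measured 113.1 and 109.2 FPKM in Control and 116.8 and 116.1 FPKM with G-CSF (0.07, 95% CI -0.03 to 0.17, adjusted p = 0.29). *Cmpk1*, which phosphorylates UMP and CMP, measured 77.9 and 85.0 FPKM in Control and 79.4 and 84.8 FPKM with G-CSF (0.01, 95% CI -0.13 to 0.16, adjusted p = 0.901). *Uck2* was narrowly apart between groups and *Cmpk1* overlapped, and a log2 difference above 0.17 in either direction lay outside the interval of both.

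Of the 6 genes around dTMP and deoxynucleotide handling, 4 rose. *Dut* hydrolyses dUTP, which keeps uracil out of DNA and yields the substrate of thymidylate synthase. It measured 23.3 and 25.1 FPKM in Control and 36.2 and 35.0 FPKM with G-CSF (0.55, SE 0.0597, adjusted p = 0.00435). *Dtymk*, the kinase of dTMP, measured 58.2 and 63.9 FPKM in Control and 75.7 and 75.3 FPKM with G-CSF (0.31, SE 0.0568, adjusted p = 0.0144). *Tk1*, the thymidine kinase of dividing cells, measured 42.8 and 40.7 FPKM in Control and 54.2 and 52.5 FPKM with G-CSF (0.35, SE 0.0508, adjusted p = 0.00746). The span of *Tk1* overlaps that of *Afmid* on the other strand by 169 bases, but *Afmid* measured only 1.63 to 2.46 FPKM. *Dctpp1*, which removes excess and modified dCTP, also had both G-CSF libraries on top, with 63.1 and 61.1 FPKM in Control and 75.8 and 73.0 FPKM with G-CSF (0.26, SE 0.0466, adjusted p = 0.0131). It lost the call without Control replicate 2 (0.0503) or G-CSF replicate 1 (0.0516).

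*Tyms*, thymidylate synthase itself, measured 16.3 and 16.9 FPKM in Control and 18.3 and 20.003 FPKM with G-CSF. Its groups did not overlap, but the log2 fold change of 0.21 (95% CI 0.04 to 0.37) missed the threshold after adjustment (adjusted p = 0.0742). It passed with a replicate block (0.0383) and with voom on estimated reads (0.0401). *Dck*, the salvage kinase of deoxycytidine and other deoxynucleosides, measured 38.3 and 38.7 FPKM in Control and 37.3 and 39.8 FPKM with G-CSF (0.00, 95% CI -0.13 to 0.13, adjusted p = 0.993). Its G-CSF libraries lay on either side of the Control libraries.

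Ribonucleotide reductase pairs a large subunit, *Rrm1*, with a small subunit that is either *Rrm2*, known for S phase, or *Rrm2b*, known as a target of p53. *Rrm2* measured 94.5 and 92.2 FPKM in Control and 131.7 and 126.3 FPKM with G-CSF (0.47, SE 0.0447, adjusted p = 0.00328). *Rrm1* measured 66.4 and 67.7 FPKM in Control and 86.1 and 82.5 FPKM with G-CSF (0.33, SE 0.0456, adjusted p = 0.00681). *Rrm2b* was the least abundant member, with 3.92 and 4.36 FPKM in Control and 3.69 and 3.42 FPKM with G-CSF (-0.21, 95% CI -0.50 to 0.07, adjusted p = 0.238). *Rrm1* and *Rrm2* thus had both G-CSF libraries above Control, and *Rrm2b* had both below, with an interval that included 0. Among 12 other p53 targets, 0 rose and 3 fell (*Sesn2*, *Cdkn1a* and *Trp53inp1*), with a median log2 fold change of -0.22. The shares among all genes tested were 12.4% higher and 11.2% lower. *Cdkn1a*, an inhibitor of the cell cycle, measured 196.5 and 200.3 FPKM in Control and 155.9 and 170.2 FPKM with G-CSF (-0.28, SE 0.0535, adjusted p = 0.015).

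*Samhd1*, which breaks deoxynucleoside triphosphates down and so opposes the reductase, was the member that fell. It measured 105.9 and 100.03 FPKM in Control and 82.6 and 83.6 FPKM with G-CSF (-0.31, SE 0.0469, adjusted p = 0.00863). Both G-CSF libraries were below both Control libraries, by 19.3% on average, and the call held without any single library. *Samhd1* is known to be abundant in dendritic cells and macrophages and to respond to interferon in some cells. All 5 dendritic cell markers had negative log2 fold changes, and 3 passed the test (*Itgax*, *H2-Ab1* and *Cd74*). *Flt3* and *Zbtb46* did not pass, and their values overlapped between groups. The summed expression of the 5 was 2575 and 2209 FPKM in Control and 1447 and 1172 FPKM with G-CSF. Most of that sum was *Cd74*, with 2016 and 1740 FPKM in Control and 1153 and 940 FPKM with G-CSF. Of 4 macrophage markers 3 fell, and their sum was 324.3 and 360.1 FPKM in Control and 261.9 and 285.8 FPKM with G-CSF. Of 9 interferon targets tested 2 fell (*Irf7* and *Oasl2*) and 0 rose, with log2 fold changes from -0.99 to 0.46 and a median of -0.60. The other 7 did not pass, and 5 of the 11 listed overlapped between groups. For the other 6, which include a gene with too few reads to be tested, both G-CSF libraries were below both Control libraries. Summed expression of the 11 was 44.1 and 29.6 FPKM in Control and 29.5 and 21.6 FPKM with G-CSF. By the same rules, 11.2% of all genes tested fell and 32.4% had both G-CSF libraries below. By flow cytometry, the study saw no effect of G-CSF on the percentages of dendritic cells and macrophages in such cultures. The part of these cells and genes in the fall of *Samhd1* was not tested.

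Genes known for S phase and proliferation moved together with the synthesis genes. All 20 such genes tested had both G-CSF libraries above both Control libraries, 15 passed the test, and the median log2 fold change was 0.31. Of all genes tested, 33.4% stood above in this way and 12.4% were called higher. The 6 with the smallest p were *Mcm5*, *Mcm2*, *Uhrf1*, *Cdc45*, *Mcm6* and *Mcm3*, most of them parts of the helicase that opens replication origins. *Mcm2* measured 43.7 and 46.8 FPKM in Control and 61.0 and 62.3 FPKM with G-CSF (0.45, SE 0.0523, adjusted p = 0.0051). Summed over the 20 genes, expression was 1198 and 1214 FPKM in Control and 1501 and 1472 FPKM with G-CSF. The part of a different share of cycling cells in the rise of the synthesis genes was not tested.

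Folate enzymes, which supply the formyl and methyl groups of purines and dTMP, rose in 5 of 9 genes tested, and 0 fell. The share that rose among all genes tested was 12.4%. The median log2 fold change was 0.35, close to that of the 33 synthesis genes, and the summed expression of the 10 genes listed was 167.0 and 167.8 FPKM in Control and 225.1 and 227.4 FPKM with G-CSF. *Shmt2*, the mitochondrial serine hydroxymethyltransferase, measured 46.4 and 46.4 FPKM in Control and 71.0 and 73.3 FPKM with G-CSF (0.64, SE 0.045, adjusted p = 0.00158). *Mthfd1l*, which releases formate in mitochondria, measured 15.05 and 14.7 FPKM in Control and 23.3 and 22.6 FPKM with G-CSF (0.63, SE 0.0592, adjusted p = 0.00326). *Shmt1*, *Mthfd1* and *Mthfd2* rose as well, by log2 fold changes of 0.27 (*Mthfd2*) to 0.57 (*Shmt1*).

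The other genes of nucleotide metabolism (breakdown, interconversion, further kinases and transport) went both ways. Of 52 listed, 44 were tested, 6 rose, 7 fell and 31 did not pass, with a median log2 fold change of 0.07. By the same rule 12.4% of all genes tested rose and 11.2% fell, so these counts are near those shares. The summed expression of those listed was 1016 and 1034 FPKM in Control and 993.7 and 1013 FPKM with G-CSF. *Ada*, which deaminates adenosine and deoxyadenosine, measured 8.14 and 7.69 FPKM in Control and 16.6 and 15.1 FPKM with G-CSF (0.99, SE 0.0821, adjusted p = 0.00239). *Dctd*, which deaminates dCMP to the substrate of thymidylate synthase, measured 2.80 and 3.10 FPKM in Control and 5.99 and 4.80 FPKM with G-CSF (0.84, SE 0.142, adjusted p = 0.0113). Both had higher log2 fold changes than any of the 33 synthesis genes, as did the adenylate kinase *Ak4* (0.94, SE 0.205, adjusted p = 0.023). The adenylate kinase *Ak6* (0.33, SE 0.0513, adjusted p = 0.00891) and *Itpa*, which removes inosine triphosphate (0.23, SE 0.049, adjusted p = 0.0212), rose by less.

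The genes that fell included enzymes of breakdown, but also kinases and a transporter, and *Nt5e* and *Upp1* had the smallest p. *Nt5e*, the ectonucleotidase that makes adenosine from AMP outside the cell, measured 31.3 and 33.9 FPKM in Control and 20.2 and 20.4 FPKM with G-CSF (-0.68, SE 0.0607, adjusted p = 0.00291). *Upp1*, the phosphorylase that splits uridine, measured 172.6 and 156.6 FPKM in Control and 106.2 and 118.2 FPKM with G-CSF (-0.55, SE 0.0703, adjusted p = 0.00569). For both, the 2 G-CSF libraries were well below the 2 Control libraries.

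**Figure D4:**
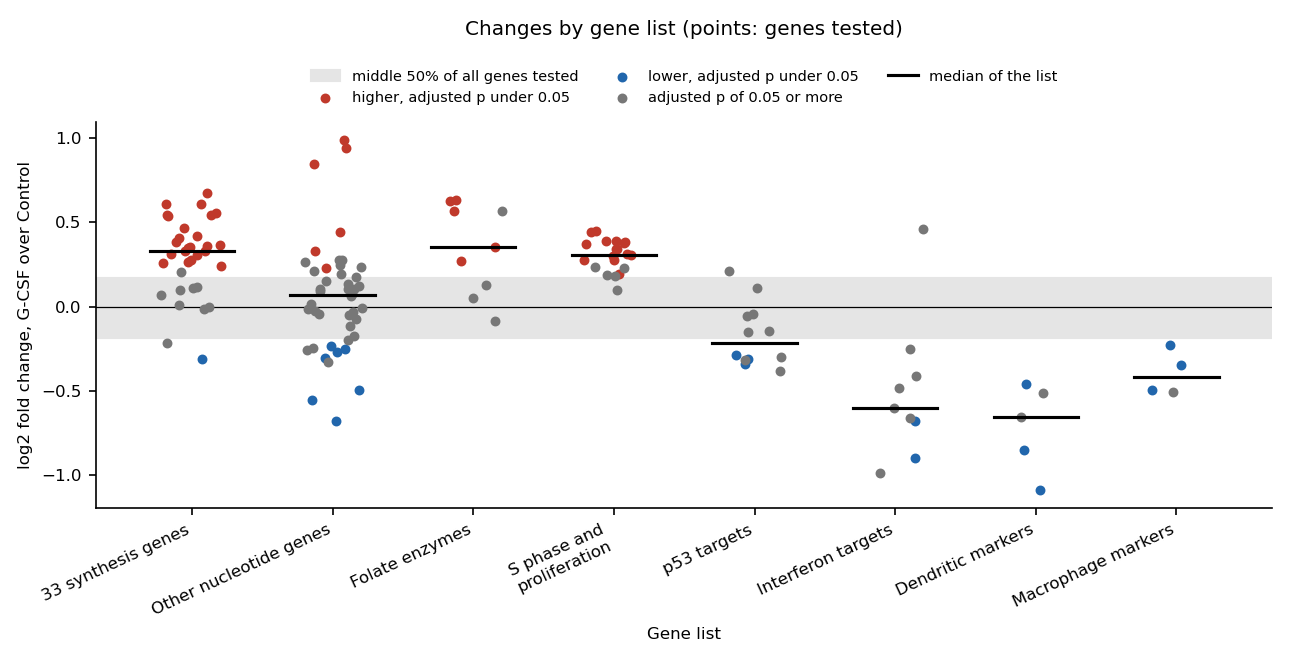
Log2 fold change, G-CSF over Control, of each gene tested in the nucleotide synthesis set and in 7 other gene lists, with a bar at the median of each list, colour for the call and a grey band for the middle 50% of all genes tested. The medians of the synthesis genes (0.33), folate enzymes (0.35) and S phase genes (0.31) lie above the band, and that of the other nucleotide genes (0.07) within it.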

How the data were processed

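RNA-seq values of 2 Control and 2 G-CSF libraries were used as the authors deposited them, in FPKM. The unit was taken from the values and from the submitters' processing notes, which name TopHat2 2.0.13, Bowtie2 2.2.3, SAMtools 0.1.19, Cufflinks 2.2.1 and mm10. The annotation is not given in the sources used here. The values are already divided by depth and transcript length, so reads had to be estimated. Over single-transcript genes (600 to 4000 bases, less an offset of 210 bases, and at most 8 reads), 64.8% to 70.1% of values lay within 0.05 of a whole read at the depths given. Lengths and positions came from GENCODE M21, in which 23310 of 24346 gene names were found (643 more by a RefSeq synonym). Intervals of the fit cover the spread between libraries.

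Genes that reached 10 estimated reads in 2 or more libraries, and 15 over the 4 together, were tested on log2(FPKM + 0.1) with limma (lmFit, eBayes with trend, two-sided, condition only), which understates the change of low genes, with Benjamini-Hochberg adjustment over those genes. Read sharing between genes was taken from 75-base windows of their transcripts that are identical. The 33 genes and all lists were chosen with earlier results of these data known. All 33 are named, and of the other nucleotide, S phase, folate and p53 lists at most 6 called genes with the smallest p. *Adssl1* and *Ak4*, of the other nucleotide list, are also named, to give their values beside *Adss* and *Ak6*. *Irf7*, *Oasl2* and the marker genes are named from lists of interferon targets and cell markers to give values beside *Samhd1* and the check of cell type. The alternatives were other pseudocounts, filters and scalings, limma voom on estimated reads, a replicate block and each library left out. The read filter and the limma fit were tested on simulated counts, and the read estimate, window sharing and motif search were not. *Ly6g* and *Trac* were not analysed here. Results for some genes are not reported here, and 3 lists (other nucleotide, folate and interferon genes) were counted again without them after they had first been counted. The work used limma 3.58.1 in R 4.3.3, and numpy 2.4.6, pandas 2.3.3 and matplotlib 3.10.9 in python 3.11.15.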

Additional observations from a re-analysis of the deposited data

How the results depend on the processing

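The 24 members called kept their direction in all 8 other settings and in the 4 fits that left out a library. In the 8 settings 21 stayed called, and 16 did so in all 4 fits without a library, in which the lone library is assumed to vary like the others. Members called higher numbered 20 with no filter on low values, 24 with voom, and 18 to 21 without a library, against 23, and *Samhd1* was called lower in each. The replicate numbers tie no samples together in the labels. Deviations of Control replicate 1 and G-CSF replicate 1 from their group means correlated at *r* = 0.235 over 10470 genes. With 2 libraries a group, those of replicate 2 are the same with the sign turned. A replicate block gave 24 members higher and 1 lower, with 2012 genes higher, 1932 lower and 192 past 2-fold, against 1496, 1358 and 172 without the block. No filter on low values gave 882 genes higher and 744 lower among 16234 tested. Genes called numbered 750 to 899 higher, 670 to 1019 lower and 152 to 186 past 2-fold without a library. The count past 2-fold was 57 with a pseudocount of 1 FPKM, which shrinks folds of low genes, and 80 with at least 1 FPKM in all 4 libraries. Upper-quartile scaling gave 1308 higher and 1531 lower. Among the 33 members, directions turned only in 3 that passed no test. *Cmpk1* was -0.008 and *Dck* -0.02 on the log2 scale with upper-quartile scaling, and *Dck* -0.004 with median-ratio scaling. Without a library, *Cmpk1* ranged from -0.051 to 0.076, *Dck* from -0.047 to 0.049 and *Ctps2* from -0.096 to 0.063. *Rrm2b* had the fewest reads, 200 to 270 a library, which limits the difference that could be detected in it.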

Other observations

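Of 9 genes of the MYC network tested, *Myc* (log2 fold change 0.48, SE 0.067, limma adjusted p = 0.00715) and *Mlx* (0.19, SE 0.0472, adjusted p = 0.0335) rose and *Mxd1* (-0.62, SE 0.0694, adjusted p = 0.00463) fell with G-CSF. The other 6 did not pass the test, and the median of the list was -0.12. Of all genes tested, 12.4% rose and 11.2% fell. *Mxd1* encodes a partner of MAX that represses MYC targets and is known to rise as myeloid cells mature. All 4 markers of mast cells and basophils (*Cpa3*, *Mcpt8*, *Kit* and *Fcer1a*) fell, and their summed expression was 88.0 and 87.5 FPKM in Control and 55.3 and 60.4 FPKM with G-CSF.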
